A study of Homo sapiens with 18 samples.

Results

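The genes described here are 10 outputs and regulators of the unfolded protein response and the integrated stress response: HSPA5, XBP1, HERPUD1, DNAJB9, ATF4, DDIT3, TRIB3, ASNS, CHAC1 and SESN2. They were taken by symbol, and a probe set was kept if the platform annotation gave it exactly 1 of these symbols. This gave 18 probe sets of the 54675 on the array, and 10 of the 19775 genes that have a probe set of their own. RNA came from A549, an established human lung carcinoma line used as a stand-in for the alveolar epithelium, cultured at the air-liquid interface on transwell membranes for 72 h in a humidified chamber. In each of 9 experiments cultures stood in an exposure and a reference chamber, and 1 array was made from each chamber; below, a culture stands for the RNA of 1 array. The exposure chamber held 0.1 ppm formaldehyde in 3 experiments, 0.5 ppm in 3 and 0 ppm in 3, and the reference chamber run beside each held none, which gave 6 groups of 3 arrays. All groups share the 1 cell line and the membrane, and the 0 ppm exposure group carries the exposure chamber without the compound. In the numbering of the experiments, the 3 at 0 ppm come together after all those with formaldehyde, though the study describes a randomized order. A difference between formaldehyde and 0 ppm experiments therefore cannot be told apart from one between these sets of runs. The comparisons ask whether these stress genes differed with formaldehyde, with the chamber, or with the experiment.

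The unfolded protein response is started by sensors in the endoplasmic reticulum (ER) membrane when unfolded protein builds up in the ER. The IRE1 arm splices the XBP1 transcript, another cleaves ATF6, and both act through chaperone and degradation genes such as HSPA5, HERPUD1 and DNAJB9. A further arm phosphorylates the translation factor eIF2 and so favours translation of ATF4, and it is shared with other kinases that sense amino acid shortage, viruses and heme shortage, which together make up the integrated stress response. ATF4 then drives amino acid genes such as ASNS, and DDIT3, TRIB3, CHAC1 and SESN2. Formaldehyde is a reactive gas that cross-links proteins and DNA.

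The upstream sequences show which known elements of the pathway lie next to the genes that the results turn on. All 10 genes were matched in RefSeq (GRCh38.p14), with 16 start sites, and the 250 bases before each were searched on both strands for 4 motifs. These were the ER stress response element ERSE, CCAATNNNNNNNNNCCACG, bound by ATF6 with NF-Y, its shorter form ERSE-II, ATTGGNCCACG, the CARE element TGATGNAA of C/EBP and ATF4 pairs, and the XBP1 site UPRE, TGACGTGG. ERSE was in 0.074% of the 35116 upstream sequences of the table, ERSE-II in 0.0513%, CARE in 3.14% and UPRE in 0.612%. HSPA5 and XBP1 held ERSE, HERPUD1 held ERSE-II and CARE, and ASNS and CHAC1 held CARE. The other 5 genes held none of the 4 in this window and UPRE was in none of the 10, which says only that these letters do not occur there. XBP1 and ASNS have 2 listed start sites each, and the sequence before the other site of each held none of the 4. The shares above count sequences, while the matches are given by gene. Below, the matched letters are in capitals, each sequence runs 5′ to 3′ on the strand of its gene, and no match overlaps another. HSPA5 lies at chr9:125241344-125241593 on the minus strand, XBP1 at chr22:28800570-28800819 on the minus strand, HERPUD1 at chr16:56931892-56932141 on the plus strand, ASNS at chr7:97872409-97872658 on the minus strand and CHAC1 at chr15:40953221-40953470 on the plus strand.
HSPA5: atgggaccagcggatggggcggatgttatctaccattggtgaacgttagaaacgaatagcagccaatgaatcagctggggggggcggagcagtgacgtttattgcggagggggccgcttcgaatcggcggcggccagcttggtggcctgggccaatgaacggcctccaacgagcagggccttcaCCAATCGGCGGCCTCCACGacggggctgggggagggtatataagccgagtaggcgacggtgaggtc
XBP1: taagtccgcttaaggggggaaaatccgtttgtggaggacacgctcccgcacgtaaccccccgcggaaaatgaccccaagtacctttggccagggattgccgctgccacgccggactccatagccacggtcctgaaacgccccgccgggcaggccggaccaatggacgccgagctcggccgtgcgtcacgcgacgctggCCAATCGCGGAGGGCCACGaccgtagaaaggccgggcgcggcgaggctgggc
HERPUD1: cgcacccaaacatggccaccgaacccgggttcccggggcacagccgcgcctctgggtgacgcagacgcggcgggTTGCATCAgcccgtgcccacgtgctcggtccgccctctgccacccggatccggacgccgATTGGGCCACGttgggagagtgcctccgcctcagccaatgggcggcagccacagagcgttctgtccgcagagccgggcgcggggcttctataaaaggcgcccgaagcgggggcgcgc
ASNS: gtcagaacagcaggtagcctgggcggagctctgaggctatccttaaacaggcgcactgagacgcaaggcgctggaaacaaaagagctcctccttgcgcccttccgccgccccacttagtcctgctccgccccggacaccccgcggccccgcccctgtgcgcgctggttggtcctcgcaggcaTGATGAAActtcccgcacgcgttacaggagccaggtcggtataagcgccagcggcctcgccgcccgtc
CHAC1: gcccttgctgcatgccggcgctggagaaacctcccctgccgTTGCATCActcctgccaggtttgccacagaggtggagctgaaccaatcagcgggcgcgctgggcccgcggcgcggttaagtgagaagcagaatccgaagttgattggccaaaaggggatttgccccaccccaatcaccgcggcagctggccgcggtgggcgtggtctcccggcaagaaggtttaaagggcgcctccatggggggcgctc

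The ERSE of HSPA5 begins 66 bases and that of XBP1 52 bases before the start site, and the ERSE-II of HERPUD1 begins 117 bases before it. The CARE of ASNS begins 68 bases before the start, that of HERPUD1 176 and that of CHAC1 209, the last pair on the opposite strand. A match is a description of the reference genome and not a measurement in these cells.

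The deposited signals were MAS5 values on a linear scale, and every array had a trimmed mean of 500. Array medians ran between 26.7 and 34.0, and the median of the mean log2 signals was 4.78. All 5 epithelial markers lay between percentiles 81.7 and 99.4 of the mean log2 signals, and the 4 measured markers of type II alveolar cells between 51.2 and 76.2. Of 8 markers of blood, endothelial, fibroblast and ciliated cells, 3 were above the median (CD14, PECAM1 and COL1A1), and the T cell marker CD3E lay at percentile 1.74. The control probe set at the 5′ end of actin, which loses signal in degraded RNA, had 6.85 and 5.90 on the log2 scale on 2 reference-chamber arrays, replicate 3 of the 0 ppm and replicate 1 of the 0.1 ppm experiments, against 7.75 to 9.70 on the other 16 arrays.

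The brightest probe sets of 9 of the 10 genes lay above the median signal, and that of CHAC1 below it. ATF4, the transcription factor at the centre of the integrated stress response, had a mean log2 signal of 13.27, at percentile 98.6 of all probe sets. HSPA5, the ER chaperone also called BiP, had 12.85, DNAJB9, a co-chaperone of HSPA5, 12.40, XBP1, the transcription factor made by splicing, 11.44, and HERPUD1, a membrane protein of ER-associated degradation, 11.21. ASNS, which makes asparagine, had 11.25. DDIT3, the transcription factor also called CHOP, had 8.59, TRIB3, a pseudokinase that restrains ATF4 output, 7.71, and SESN2, a leucine sensor that restrains mTORC1, 7.09. CHAC1, which degrades glutathione, had 4.03, at percentile 44.4, with linear signals of 5.2 to 41.2 on the 18 arrays. The signal of a probe set depends on its own probes, so these means do not rank transcript amounts. Besides these, 8 further probe sets exist, of which 4 were above the median: the second of HSPA5, XBP1 and DNAJB9 and the third of DNAJB9.

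**Figure D1:**
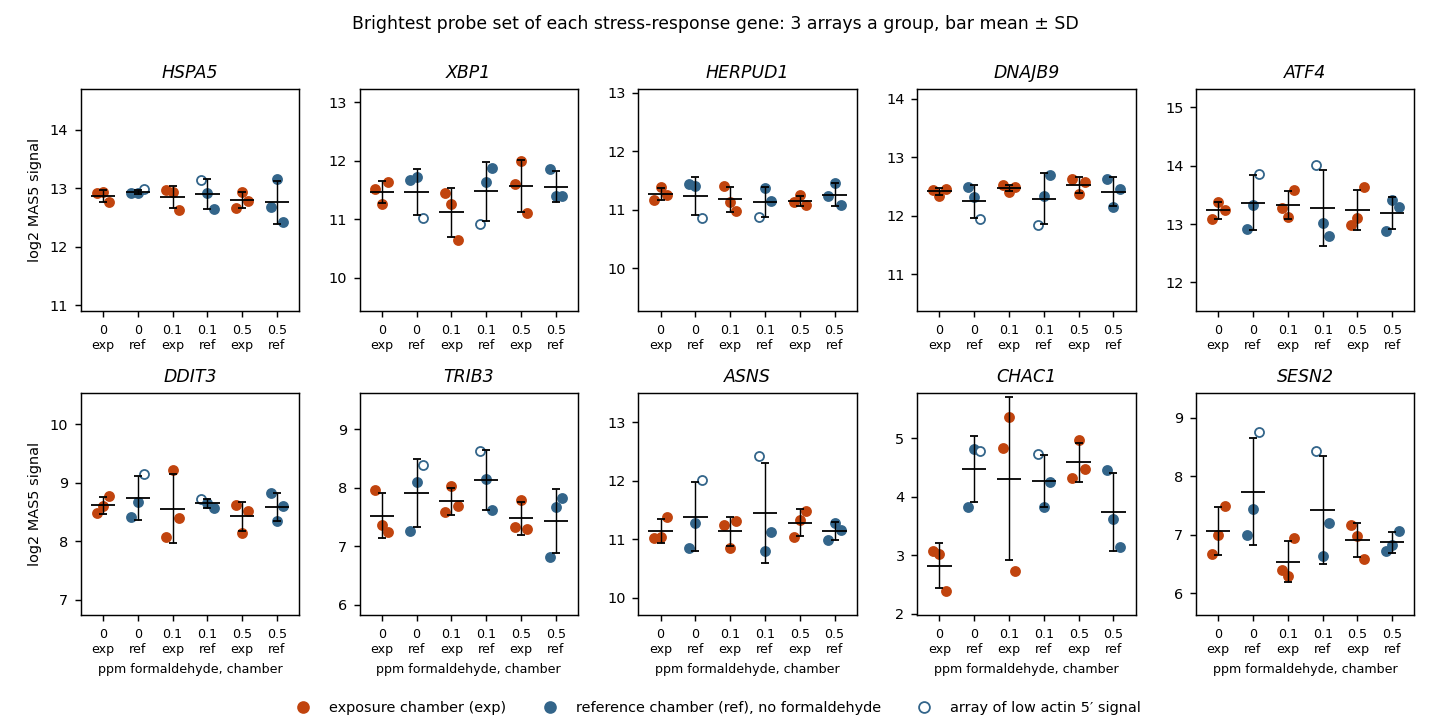
Log2 MAS5 signal (vertical axis, the same span of 3.8 log2 units in each panel) of the brightest probe set of each gene on the 18 arrays, by ppm and chamber (horizontal axis). Each point is an array, bars are mean ± SD (n = 3) and open points are the 2 arrays of low actin 5′ signal. The 0 ppm exposure cultures of CHAC1 lie at 2.39 to 3.07, and the open points lie above the other arrays for ATF4, TRIB3, ASNS and SESN2.

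HSPA5 varied little in the exposure chamber. Its log2 signals were 12.91, 12.93 and 12.75 in the exposure chamber at 0 ppm, 12.97, 12.93 and 12.62 at 0.1 ppm and 12.66, 12.93 and 12.78 at 0.5 ppm. In the reference chamber beside them they were 12.91, 12.91 and 12.98, then 13.13, 12.92 and 12.63, and 12.68, 13.16 and 12.42. The widest group was the reference chamber beside 0.5 ppm, with an SD of 0.37 (n = 3). Every exposure group overlapped its reference group, and the SD over the 9 exposure cultures was 0.13, at percentile 4.27 of the SDs of probe sets above the median. The brightest probe set of DNAJB9 had an SD of 0.092 there (percentile 0.772) and that of HERPUD1 one of 0.14 (percentile 5.93). Dimmer probe sets of DNAJB9 and HSPA5 varied more, with SDs of 0.37 (percentile 64.7) for the second and 0.45 (percentile 79.6) for the third of DNAJB9, and 0.27 (percentile 40.0) for the second of HSPA5. CHAC1 had an SD of 1.11 over the same 9 cultures, and the next among the brightest probe sets of the 10 genes were SESN2 and XBP1 with 0.38 each. The CHAC1 probe set is below the median signal, so its percentile of 99.5 sets it against brighter probe sets. The other member probe sets below the median had SDs of 1.56 (HERPUD1), 1.11 (SESN2), 0.74 (ASNS) and 0.50 (TRIB3) over these cultures.

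With 0.1 ppm formaldehyde, 0 of the 18 probe sets differed between exposure and reference chamber at the study's threshold, an unadjusted p under 0.05 in limma, where 4.00% of all 54675 did. With 0.5 ppm the count was 0 of 18 as well, against 3.92% of all probe sets. With 0 ppm in both chambers it was 1 of 18, CHAC1, against 4.84%. Within the exposure chamber 1 of 18 differed between 0.1 and 0 ppm (4.47% of all), 1 of 18 between 0.5 and 0 ppm (4.56%) and 0 of 18 between 0.5 and 0.1 ppm (3.82%). After the Benjamini-Hochberg adjustment in limma no probe set of any gene passed in any of these comparisons. The study credited a transcript to formaldehyde only if it passed against both its reference chamber and the 0 ppm exposure cultures. It also had to stay short of the threshold between the chambers at 0 ppm. As 0 of 18 passed against the reference chamber at either concentration, no member probe set met that rule. In bulk RNA, fewer cells of a kind and less RNA per cell cannot be told apart.

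For the 9 genes other than CHAC1 the brightest probe sets did not pass the threshold in any comparison. At 0.5 ppm against the reference chamber the 9 log2 differences ran from -0.17 (DDIT3) to 0.14 (ASNS), 7 higher and 2 lower, and all 9 of the 95% intervals lay within a 2-fold change in either direction. At 0.5 against 0 ppm in the exposure chamber they ran from -0.19 (DDIT3) to 0.13 (ASNS), and again all 9 intervals lay within 2-fold. At 0.1 ppm against the reference chamber they ran from -0.88 (SESN2) to 0.18 (DNAJB9), and 2 of the 9 intervals lay within 2-fold. That reference group and the 0 ppm one each hold an array of low actin 5′ signal. Without that array the differences at 0.1 ppm ran from -0.63 (XBP1) to 0.42 (ATF4), with -0.38 for SESN2, -0.04 for DNAJB9 and 0.17 for ASNS, which had -0.31 with it. At 0.1 against 0 ppm in the exposure chamber they ran from -0.52 (SESN2) to 0.25 (TRIB3), with 7 of 9 intervals within 2-fold. With 0 ppm in both chambers they ran from -0.68 (SESN2) to 0.17 (DNAJB9), and without the array of low actin 5′ signal from -0.23 (XBP1) to 0.12 (ATF4), with -0.16 for SESN2 and 0.01 for DNAJB9. Over the 11 comparisons 0 of the 99 tests of these genes passed the threshold, and the lowest p was 0.141.

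Among the ER genes, HSPA5 had a log2 difference of 0.04 at 0.5 ppm against the reference chamber (standard error 0.28, 95% interval -0.66 to 0.74) and HERPUD1 one of -0.11 (standard error 0.23, interval -0.68 to 0.46). XBP1 had 0.02 (standard error 0.33) and DNAJB9 0.11 (standard error 0.25). Among the ATF4 genes, ATF4 itself had 0.05 (standard error 0.30), DDIT3 -0.17 (standard error 0.27), TRIB3 0.04 (standard error 0.36), ASNS 0.14 (standard error 0.24) and SESN2 0.04 (standard error 0.26). XBP1 at 0.5 against 0.1 ppm in the exposure chamber, with 0.45, was the farthest from 0 of the 9 genes in the comparison of the 2 concentrations (95% interval -0.45 to 1.35).

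**Figure D2:**
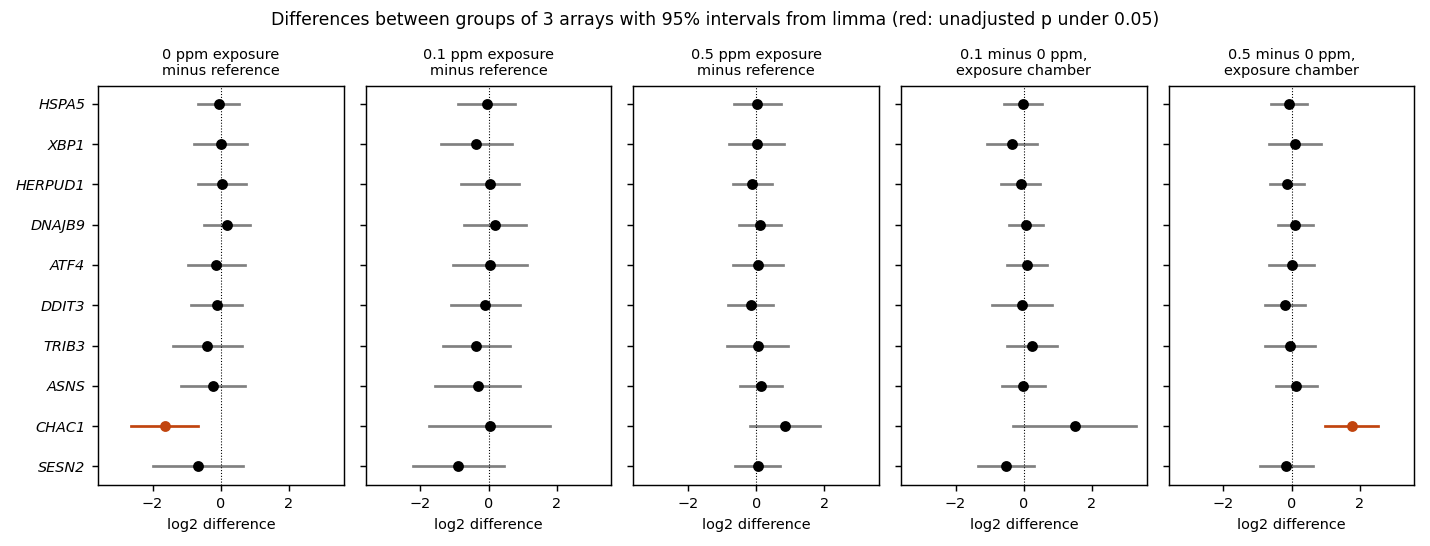
Log2 difference (horizontal axis, first group minus second) with its 95% interval from limma for the brightest probe set of each gene (vertical axis) in 5 comparisons of 3 arrays with 3. Red marks an unadjusted p under 0.05, which only CHAC1 reached, with -1.65 at 0 ppm between the chambers and 1.76 between 0.5 and 0 ppm.

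CHAC1 was low in the 0 ppm exposure cultures. Its log2 signals there were 3.07, 3.01 and 2.39 (8.4, 8.1 and 5.2 on the linear scale), against 3.83, 4.81 and 4.77 in the reference chamber of the same experiments. The groups did not overlap, and the log2 difference was -1.65 (standard error 0.40, 95% interval -2.63 to -0.67, adjusted p = 0.659 in limma), with the exposure culture lower in 3 of 3 experiments. No culture of either group received formaldehyde. At 0.5 ppm the exposure cultures had 4.32, 4.97 and 4.47, all above those at 0 ppm, a log2 difference of 1.76 (standard error 0.31, 95% interval 0.99 to 2.54, adjusted p = 0.463 in limma). Against their own reference chamber, with 4.46, 3.61 and 3.15, the groups overlapped and the log2 difference was 0.85 (standard error 0.42, 95% interval -0.18 to 1.88), higher in 2 of 3 experiments. At 0.1 ppm the exposure cultures had 4.82, 5.36 and 2.74, against 4.72, 3.82 and 4.25 in the reference chamber. The lowest of these exposure cultures, at 2.74, lay between those at 0 ppm, and the log2 difference was 1.49 against 0 ppm (standard error 0.73, not past the threshold) and 0.04 against the reference chamber (standard error 0.74).

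The chamber difference of CHAC1 was then compared between experiments. It was 0.85 at 0.5 ppm and -1.65 at 0 ppm, a difference of 2.50 (standard error 0.58, 95% interval 1.20 to 3.79, adjusted p = 0.855 in limma), and CHAC1 was the only one of the 18 probe sets past the threshold there, against 3.69% of all probe sets. For 0.1 against 0 ppm it was 1.69 (standard error 0.88), and 0 of 18 passed, against 3.21%. Every CHAC1 call given so far includes the same low 0 ppm exposure cultures, so these calls are not separate from each other. The signals of CHAC1 are dim, and with 32 added to each signal before the log2, the log2 difference was -0.48 between the chambers at 0 ppm, 0.52 between 0.5 and 0 ppm and 0.77 for the difference of chamber differences, all still past the threshold. Without replicate 3 of the 0.1 ppm exposure chamber the log2 difference between 0.1 and 0 ppm was 2.27. Without replicate 1 of the 0.5 ppm reference chamber that between the chambers at 0.5 ppm was 1.21, and both then passed the threshold. These are the upper ends. Over all omissions of 1 array the first ran from 0.96 to 2.27, with an unadjusted p in limma of up to 0.239. The second ran from 0.55 to 1.21, with an unadjusted p of up to 0.249.

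**Figure D3:**
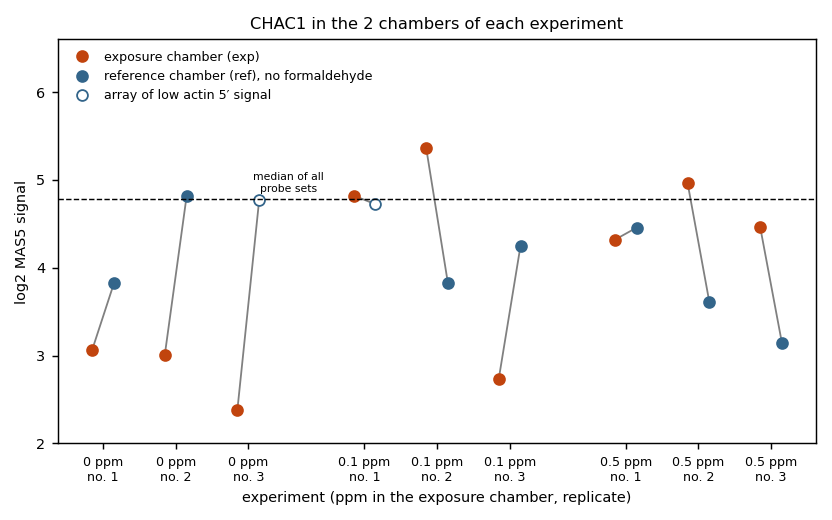
CHAC1 log2 MAS5 signal (vertical axis) in the exposure and the reference culture of each of the 9 experiments (horizontal axis), joined by a line, with the median of all probe sets, 4.78, dashed. The exposure culture is the lower of the pair in the 3 experiments at 0 ppm, in 1 of 3 at 0.1 ppm and in 1 of 3 at 0.5 ppm.

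TRIB3 gave different results with its 2 probe sets. The brightest had 7.58, 8.03 and 7.69 in the exposure chamber at 0.1 ppm and 7.96, 7.37 and 7.24 at 0 ppm, groups that overlapped (log2 difference 0.25, standard error 0.29). The dimmer one had 3.77, 3.78 and 3.49 at 0.1 ppm, below the 4.19, 5.04 and 4.76 at 0 ppm, a log2 difference of -0.98 (standard error 0.30, adjusted p = 1.00 in limma), and the call was lost without 0 ppm exposure replicate 2 or 3. It was also the only member past the threshold between the reference chambers, where no culture received formaldehyde. There it had 1.30, 3.85 and 2.45 in the 0.1 ppm experiments, against 4.40, 4.44 and 4.37 in the 0 ppm experiments, a log2 difference of -1.87 (standard error 0.67), where 3.68% of all probe sets passed. Leaving out any 1 array but replicate 2 of the 0.1 ppm experiments ended that call. The dimmer probe set was below the median, with a mean of 16.9 on the linear scale, and the directions of the 2 probe sets differed in both comparisons. Between the reference chambers of the 0.5 and 0 ppm experiments 0 of 18 probe sets passed (4.54% of all), and between those of the 0.5 and 0.1 ppm experiments 0 of 18 (3.67%).

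A listing of 111 further genes of the same pathways, of which 105 had a probe set of their own, was tested in the same way. Between exposure and reference chamber 0 of 105 passed the threshold at 0 ppm (4.84% of all probe sets), 0 at 0.1 ppm (4.00%) and 1 at 0.5 ppm (3.92%). In the exposure chamber 1 passed between 0.1 and 0 ppm (4.47%) and 2 between 0.5 and 0 ppm (4.56%), all of them lower. The median log2 difference over the 105 genes lay between -0.05 and 0.05 in these 5 comparisons, beside -0.07 to -0.03 over all probe sets. Of the stress sensors and eIF2 kinases 0 of 9 passed, and likewise 0 of 10 genes of eIF2, its exchange factor eIF2B and its phosphatase. Of the aminoacyl-tRNA synthetases listed with XPOT 0 of 10 passed, and 0 of 18 genes of ER-associated degradation and translocation.

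CRELD2, an ER-resident protein induced by ER stress, was the only gene above the median signal among those that passed. Its log2 signals in the exposure chamber were 9.80, 10.66 and 10.04 at 0 ppm, 9.72, 8.97 and 9.13 at 0.1 ppm and 9.40, 9.07 and 9.03 at 0.5 ppm. Both formaldehyde groups lay below the 0 ppm group without overlap, with log2 differences of -0.89 at 0.1 ppm (standard error 0.35, adjusted p = 1.00 in limma) and -1.002 at 0.5 ppm (standard error 0.30, adjusted p = 0.971). These 2 comparisons share the 0 ppm cultures. The call at 0.1 ppm was lost with quantile normalization, median centring and all 18 arrays in 1 fit, and without 0 ppm exposure replicate 2 or 3 or 0.1 ppm exposure replicate 2 or 3, and that at 0.5 ppm was lost without 0.5 ppm exposure replicate 2 or 3. In the reference chambers, without formaldehyde, CRELD2 had 9.21, 9.72 and 10.43 beside 0 ppm, 10.49, 9.19 and 9.45 beside 0.1 ppm and 9.34, 9.76 and 10.47 beside 0.5 ppm. Against the reference chamber the log2 difference was -0.44 at 0.1 ppm and -0.69 at 0.5 ppm, neither past the threshold, and that at 0.1 ppm was -0.05 without the array of low actin 5′ signal. At 0.5 ppm it passed with an eBayes trend and without replicate 1 of that reference chamber. The other gene that passed was TRIB2, a dim relative of TRIB3 named after its values were seen, with -1.12 at 0.5 ppm against the reference chamber (standard error 0.25, adjusted p = 0.847 in limma) and a mean log2 signal of 4.18. It also passed at 0.5 against 0 ppm in the exposure chamber, with -0.69 (standard error 0.24), and for the chamber difference at 0.5 against 0 ppm, with -1.27 (standard error 0.45).

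The 2 arrays of low actin 5′ signal stood apart in 6 of the 10 brightest probe sets. On both, ATF4, TRIB3, ASNS, SESN2 and the second probe set of HSPA5 lay above the range of the other 16 arrays, and HERPUD1 and both bright probe sets of DNAJB9 below it. That was 8 of the 18 probe sets, where 23.7% of all probe sets lay outside the range on both arrays. Of the 13 members above the median it was 8, or 61.5%, where 42.2% of the 27337 probe sets above the median did. The widest shift was that of the second probe set of DNAJB9, with 9.29 on the 0 ppm array and 8.97 on the 0.1 ppm array, against 10.47 to 11.95 on the others. SESN2 had 8.76 and 8.44, against 6.29 to 7.49, and ASNS 12.01 and 12.41, against 10.79 to 11.48. HSPA5, with 12.98 and 13.13, and XBP1, with 11.02 and 10.92, stayed inside the range of the others. The part of RNA quality in these shifts was not tested. Without the 2 arrays the counts of probe sets past the threshold were 0 at 0.1 ppm and 1 at 0 ppm between the chambers, as with them.

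**Figure D4:**
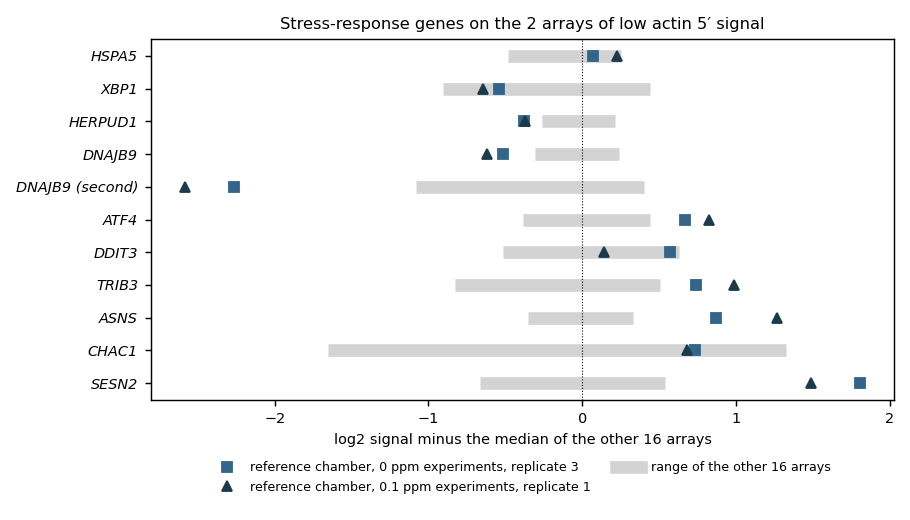
Log2 signal on the 2 reference-chamber arrays of low actin 5′ signal, as the distance from the median of the other 16 arrays (horizontal axis), for the brightest probe set of each gene and the second of DNAJB9 (vertical axis). Grey bars span the other 16 arrays. ATF4, TRIB3, ASNS and SESN2 lie to the right of their bars, and HERPUD1 and DNAJB9 to the left.

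Whether the genes varied together was asked across cultures, within 1 chamber at a time, since the 2 cultures of an experiment share its run. Over the 9 reference cultures the 2 arrays above form a cluster of their own, and 53.8% of the 27337 probe sets above the median correlated with ATF4 at an unadjusted p under 0.05 (exact permutation of pairings), so correlations there are given without them. The ATF4 signals of the other 7 were 12.91 and 13.32 beside 0 ppm, 13.02 and 12.80 beside 0.1 ppm and 12.87, 13.40 and 13.28 beside 0.5 ppm. In the same order the second probe set of DNAJB9 had 11.73 and 10.81, 11.66 and 11.95, and 11.91, 10.47 and 11.10. The cultures with the most ATF4 had the least of this probe set, with a Pearson r of -0.98 (exact permutation p = 0.000198, adjusted p = 0.0634) and a Spearman rho of -1 (exact permutation p = 0.000397, adjusted p = 0.0834). In the exposure chamber ATF4 had 13.08, 13.38 and 13.25 at 0 ppm, 13.27, 13.13 and 13.58 at 0.1 ppm and 12.99, 13.10 and 13.63 at 0.5 ppm. The second probe set of DNAJB9 had 11.59, 11.06 and 11.09, then 11.52, 11.64 and 10.73, and 11.81, 11.60 and 11.06. Over these 9 cultures r was -0.89 (exact permutation p = 0.00117, adjusted p = 0.0582) and rho -0.90 (exact permutation p = 0.00203, adjusted p = 0.241). Without the 2 cultures farthest from the median of ATF4, r was -0.99 over the reference and -0.87 over the exposure cultures. The brightest probe set of DNAJB9 had an r with ATF4 of -0.85 over the 7 reference cultures and of 0.08 over the exposure cultures. No r with ATF4 is given here for the third. Over the exposure cultures the third had 6.77 where ATF4 was highest and 6.42 where lowest, in a range of 5.56 to 6.77. Over the 7 reference cultures it had 5.63 where ATF4 was highest and 6.11 where lowest, in a range of 5.63 to 6.83. In the exposure cultures the inverse relation is therefore shown for the second probe set only. The p-values were adjusted over the 27337 probe sets set against ATF4, of which 18.3% passed the unadjusted threshold in the 7 reference and 19.3% in the 9 exposure cultures. This pair was picked after its values were seen. On the 2 arrays of low actin 5′ signal the pair was also shifted in opposite directions. Their mean minus that of the other arrays was 0.75 for ATF4 and -2.23 for the second probe set of DNAJB9. The part of RNA quality in this relation was not tested.

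HSPA5 and HERPUD1, a pair picked after its values were seen, varied in the same direction in the 7 reference cultures. HERPUD1 had 11.44 and 11.41 beside 0 ppm, 11.38 and 11.16 beside 0.1 ppm and 11.25, 11.46 and 11.08 beside 0.5 ppm, a range of 0.38, and HSPA5 a range of 0.74. Their r was 0.95 (exact permutation p = 0.00119, adjusted p = 0.383) with a rho of 0.86 (exact permutation p = 0.0238, adjusted p = 0.295), and r was 0.88 without the 2 cultures farthest from the median of HSPA5. Over the 9 exposure cultures r was 0.71 (exact permutation p = 0.0357, adjusted p = 0.346) and rho 0.78, and r was 0.49 without the farthest 2. With the 2 arrays of low actin 5′ signal, r over the 9 reference cultures was 0.08.

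XBP1 ran opposite to ATF4, with an r of -0.79 over the 7 reference cultures (exact permutation p = 0.0488, adjusted p = 0.269) and of -0.76 over the 9 exposure cultures (exact permutation p = 0.0135, adjusted p = 0.153). The rho was -0.79 and -0.77, and without the 2 cultures farthest from the median of ATF4 r was -0.96 and -0.44, so that over the exposure cultures the relation rests on those 2. No r of ATF4 with ASNS is given here. ASNS had 11.48 in the exposure culture with the highest ATF4 and 11.03 in that with the lowest, in a range of 10.84 to 11.48. Over the 7 reference cultures it had 11.27 and 11.13, in a range of 10.79 to 11.28. ASNS was highest where the actin 5′ signal was lowest, with an r of -0.92 over the 7 reference cultures (exact permutation p = 0.00476, adjusted p = 0.448, rho -0.86) and of -0.80 over the 9 exposure cultures (exact permutation p = 0.00894, adjusted p = 0.289, rho -0.70). Without the 2 cultures farthest from the median of ASNS these were -0.64 and -0.49. Of the 27337 probe sets compared, 9.58% and 22.0% correlated with the actin 5′ control at an unadjusted p under 0.05 (exact permutation). The r of the other genes with this control is not given here. No r between 2 of these genes passed an adjusted p of 0.05 over the 7 reference cultures.

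**Figure D5:**
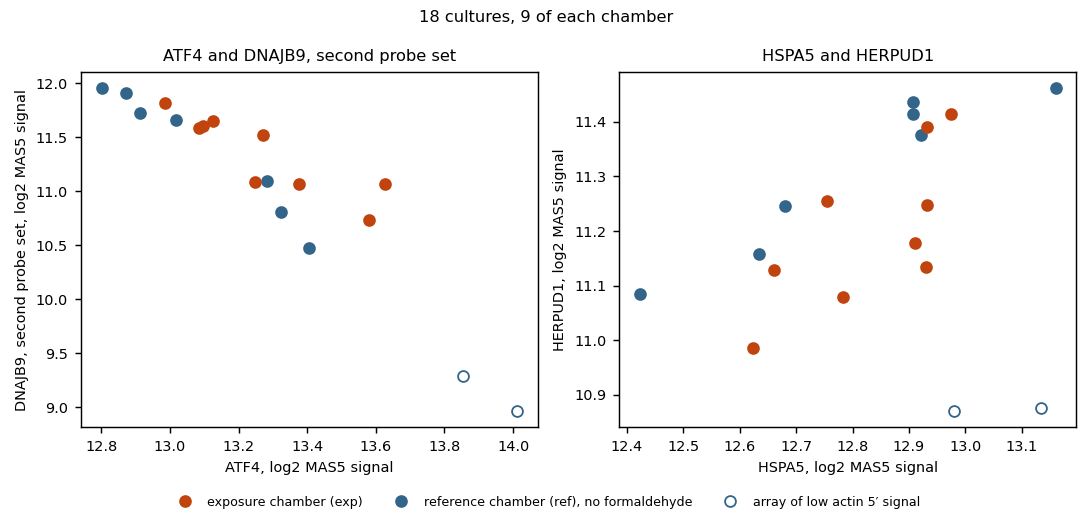
Log2 MAS5 signals of 2 pairs of probe sets in the 18 cultures, ATF4 (horizontal) with the second probe set of DNAJB9 (vertical) and HSPA5 (horizontal) with HERPUD1 (vertical). Open points are the 2 arrays of low actin 5′ signal. In the left panel r is -0.98 over the 7 filled reference points and -0.89 over the 9 exposure points, and in the right panel 0.95 and 0.71.

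Between the 2 chambers of an experiment HSPA5 had an r of 0.69 over 9 experiments (exact permutation p = 0.0416, adjusted p = 0.318) and a rho of 0.65 (exact permutation p = 0.0666). It was 0.70 without the 2 experiments farthest from the median, and the median r of all 27338 probe sets compared was 0.33. CHAC1 had an r of -0.45 (exact permutation p = 0.219, adjusted p = 0.575, rho -0.60) and XBP1 of -0.39 (exact permutation p = 0.31, adjusted p = 0.653, rho -0.45). Of all probe sets 2.32% had a lower r than CHAC1 and 3.44% a lower r than XBP1. The brightest probe sets of the other 7 genes ran from -0.12 (HERPUD1) to 0.48 (ASNS). Over the 7 experiments without an array of low actin 5′ signal they ran from 0.14 (ATF4) to 0.73 (HERPUD1), with 0.72 for DNAJB9 and 0.68 for ASNS, while HSPA5 had 0.71, CHAC1 -0.52 and XBP1 -0.42. Over the 9 experiments, after adjustment 0 of all probe sets passed, against 4045 before it.

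By the largest SD over the 9 reference cultures, SESN2, CHAC1 and TRIB3 were set against the genes whose brightest probe set was most like theirs there, as a description. The nearest to SESN2 were ASB13, TMEM234, NSUN5P1, MGC16275 and MMP24, with r from 0.985 to 0.991 over the 9 reference cultures, from 0.855 to 0.922 without the 2 arrays of low actin 5′ signal, and from 0.327 to 0.802 over the 9 exposure cultures. The nearest to TRIB3 were ZNF114, S100A16, XRCC3, IER3 and ITGB4, with r from 0.963 to 0.981 over the 9 and from 0.934 to 0.991 over the 7 reference cultures. Over the exposure cultures r with TRIB3 was 0.709 for ZNF114, 0.808 for S100A16, 0.506 for XRCC3, 0.450 for IER3 and 0.502 for ITGB4. The nearest genes were picked on the 9 reference cultures, which include the 7. A high r over those 7 therefore follows in part from the choice. The nearest to CHAC1 were HGSNAT, PLEKHA6, GTF3C6, ABAT and PSORS1C1, with r from 0.919 to 0.947, and over the exposure cultures 3 of these 5 turned negative, at -0.316 (PLEKHA6), -0.531 (ABAT) and -0.52 (PSORS1C1).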

How the data were processed

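RNA of 18 A549 cultures was amplified from the 3′ end, biotin-labelled and hybridised by the authors to Affymetrix HG-U133 Plus 2.0 arrays. The deposited values are signal intensities from MAS5 on a linear scale, which the authors scaled per array to a trimmed mean of 500. This scaling removes shifts common to all probe sets. The signals are intensities and not counts, and the 3 arrays per group limit the precision. Probe sets were named from the platform annotation. Intensities were log2-transformed with no pseudocount and fitted with limma 3.58.1 (R 4.3.3, lmFit and eBayes) on all 54675 probe sets, 2 groups at a time, as in the study's methods, or 4 groups (12 arrays) for a difference of chamber differences. Calls are two-sided at an unadjusted p under 0.05, with Benjamini-Hochberg adjusted p over all probe sets. Correlations used exact permutation of pairings (two-sided), adjusted over the 27337 probe sets above the median mean signal. Scripts were tested on simulated data. Replicate numbers pair the chambers of an experiment, as the labels' shared run numbers and the parallel chambers show; deviations of paired cultures had r between 0.0086 and 0.49, over 0.1 in 6 of 9 pairs. Nothing says that cultures came from separate passages, so p-values measure the spread between these cultures. Named were all 10 genes, up to 3 further pathway genes per comparison above the median signal and past the threshold, and the 5 nearest genes of 3 members. Members and lists were chosen with earlier results of these data known. Alternatives were quantile normalization, centring on the array median, log2(signal + 32), only bright probe sets, an eBayes trend, all 18 arrays in 1 fit, leaving out each array, the replicate block and, added after seeing the data, leaving out the 2 arrays of low actin 5′ signal and all of these alternatives for CRELD2. Motifs were searched in RefSeq upstream sequences (GRCh38.p14).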

Additional observations from a re-analysis of the deposited data

Results flagged for a closer look

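The difference between exposure and reference chamber of CHAC1 differed between the 0.5 and the 0 ppm experiments by 2.50 on the log2 scale (standard error 0.58, adjusted p = 0.855 in limma), which was itself the test of the difference. The chamber difference was 0.85 at 0.5 ppm and -1.65 at 0 ppm, and it was higher in the exposure chamber in 2 of 3 experiments at 0.5 ppm and in 0 of 3 at 0 ppm. The probe set is dim, and with 32 added to each signal before the log2 the difference was 0.77, still past the threshold. It shares the 0 ppm exposure cultures with the other CHAC1 calls.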

How the results depend on the processing

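The counts of stress-response probe sets past the threshold were small, so single calls moved them. With all 18 arrays in 1 fit the count was 1 instead of 0 at 0.1 ppm between the chambers, and 1 instead of 0 between the reference chambers of the 0.5 and 0.1 ppm experiments. With quantile normalization or centring on the array median it was 1 instead of 0 at 0.5 ppm between the chambers. Among only the probe sets above the median it was 0 instead of 1 in the 5 comparisons that had a call, because CHAC1 and the dimmer probe set of TRIB3 are then not tested. With an eBayes trend it was 0 instead of 1 for 0.1 against 0 ppm in the exposure chamber. Leaving out 1 array at a time gave counts from 0 to 1 at 0.1 ppm and from 0 to 2 at 0.5 ppm between the chambers, and from 1 to 2 at 0 ppm. The counts were from 0 to 1 for 0.1 against 0 ppm in the exposure chamber, for the chamber difference at 0.1 ppm and in each of the 3 comparisons of reference chambers. The arrays whose omission moved a count were, of the reference chambers, all 3 at 0 ppm, all 3 at 0.1 ppm and replicates 1 and 3 at 0.5 ppm, and of the exposure chambers replicates 2 and 3 at 0 ppm and replicate 3 at 0.1 ppm. Without the 0.5 ppm reference chamber, replicate 1, CHAC1 was 1.21 higher at 0.5 ppm and passed the threshold in limma. Without the 0.1 ppm exposure chamber, replicate 3, it was 2.27 higher than at 0 ppm, and the chamber difference was 2.48 higher, both past the threshold. With another array left out, CHAC1 was as little as 0.55 higher at 0.5 ppm between the chambers. Between 0.1 and 0 ppm it was then as little as 0.96 higher. With the replicate block, which pairs the chambers of an experiment, the counts were 0 at 0.1 and 0.5 ppm, 1 at 0 ppm, and 0 and 1 for the chamber differences at 0.1 and 0.5 ppm, and it changed no call of the 10 genes. Of 1705 repeats of the tests of the 10 brightest probe sets and CRELD2, 1686 kept their side of the threshold. Another 10 gained the call (4 of CHAC1, 6 of CRELD2) and 9 lost it (all of CRELD2). Direction was compared only where either fit passed the threshold, and 0 of these reversed. Differences that did not pass could change sign, as ASNS did at 0.1 ppm against the reference chamber, from -0.31 to 0.17. With the trend, intervals within 2-fold at 0.1 ppm against the reference chamber were 5 of 9 instead of 2. The causes were not tested where none is named. A low signal limits CHAC1 and the dimmer probe sets most.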

Other observations

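The second probe set of HSPA5 was lower in the exposure culture in 8 of 9 experiments, by 0.22 ± 0.19 on the log2 scale (SD, n = 9 experiments). Without the 2 experiments that hold an array of low actin 5′ signal it was lower in 6 of 7, by 0.17 ± 0.16 (SD, n = 7 experiments). It did not pass the threshold at any concentration, and the brightest probe set of HSPA5 was lower in 5 of 9 experiments, by 0.03. The second probe set was picked after its values were seen. Over all probe sets the median log2 difference between the chambers was -0.07 at 0 ppm, -0.07 at 0.1 ppm and -0.04 at 0.5 ppm. The share of all probe sets lower in 8 of 9 experiments was not counted, so how unusual this count is was not tested.

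The aminoacyl-tRNA synthetases, many of which ATF4 induces, were listed together with the tRNA export receptor XPOT. All 10 of 10 measured genes of this list were higher at 0.1 than at 0 ppm in the exposure chamber. Their median log2 difference was 0.16, beside -0.03 over all probe sets. No gene of the list passed the threshold (0 of 10). At 0.5 against 0 ppm 8 of 10 were higher (median 0.14), and between the chambers at 0 ppm 8 of 10 were lower (median -0.34). Against the reference chamber of the same experiments 7 of 10 were lower at 0.1 ppm (median -0.16) and 6 of 10 at 0.5 ppm (median -0.10). The comparisons with 0 ppm share its 3 cultures. This list was picked after its values were seen, and of all 105 further pathway genes 69 were higher at 0.1 than at 0 ppm in the exposure chamber.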
